A study of Mus musculus with 6 samples.

Results

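The BCL2 family of apoptosis regulators was examined in C17.2 neural stem cells (NSCs) after hypoxia/reoxygenation (H/R). The 10 members are the genes Bcl2, Bcl2l1, Mcl1, Bax, Bak1, Bcl2l11, Bid, Bad, Bbc3 and Pmaip1, taken by gene symbol from the deposited gene table, where each symbol matched 1 of the 14665 genes. All 10 passed the filter on low counts and were tested with the 11104 genes that passed it. C17.2 is an immortalised line of mouse neural progenitors, labelled wild type. In the H/R group, 3 libraries came from cells kept at 5% O2 for 12 h and then returned to standard oxygen for 48 h. The 3 control libraries came from the same line held at standard oxygen throughout. Total RNA was depleted of ribosomal RNA before sequencing. The comparison of H/R with control NSCs asks how the transcripts of this family differ after an imitation of ischemia–reperfusion in culture.

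Proteins of this family control whether the outer membrane of the mitochondrion is permeabilised, the step that releases cytochrome c and starts the caspase cascade of intrinsic apoptosis. The effectors BAX and BAK form the pores, the anti-apoptotic members BCL2, BCL-XL (gene Bcl2l1) and MCL1 hold the effectors and their activators in check, and the BH3-only members carry stress signals to both. In the developing mouse brain the balance among them sets how many progenitors and young neurons die. Much of that control acts on the proteins, through cleavage, phosphorylation and turnover, which an RNA measurement does not report.

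The 3 H/R libraries held 15639751 to 16830389 counts and the 3 control libraries held 7267809 to 8371882 counts, so the H/R values rest on deeper libraries. Levels are given as CPM, each gene's share of its library's counts after scaling by trimmed mean of M-values (TMM) and expressed per 1000000 counts, and a fold change is the log2 ratio of H/R to control from edgeR. Whether the replicates were separate cultures is not given in the sources used here, and the p-values therefore rest on a spread between libraries that may be technical. The neural stem cell markers Nes (331 CPM in H/R and 196 CPM in control NSCs), Sox2 (31.0 and 29.1 CPM) and Vim (1329 and 1221 CPM) were present in both groups. Msi1 (6.77 CPM in H/R and 9.65 CPM in control NSCs) and Hes1 (3.18 and 1.54 CPM) were low, Slc1a3 was at 0 in every control library and at most 0.588 CPM in an H/R library, and Pax6, Prom1 and Fabp7 were not analysed here. The neuron list summed to 33.7 to 37.9 CPM in H/R libraries and 73.2 to 81.1 CPM in control libraries, almost all of it Map2. The astrocyte list reached at most 1.13 CPM in an H/R library and 0.150 CPM in a control library, and the microglia list 0.353 and 0.649 CPM. The part of these marker differences in the results below was not tested, and in bulk RNA fewer cells of a type cannot be told apart from less RNA per cell.

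After H/R, 4 of the 10 members were higher and 1 was lower than in control NSCs. Bad, Bak1, Bcl2l1 and Mcl1 rose, Bcl2l11 fell, and Bcl2, Bax, Bid, Bbc3 and Pmaip1 did not pass the test (edgeR's quasi-likelihood test, Benjamini-Hochberg adjusted p under 0.05 over 11104 genes). The genes that rose belong to all 3 roles: Bcl2l1 and Mcl1 restrain apoptosis, Bak1 is a pore-forming effector and Bad is a BH3-only protein. Of all genes tested, 37.8% passed in either direction, 18.8% higher and 19.0% lower in H/R NSCs. Without scaling between libraries, the same test called 3704 genes higher and 1272 lower, and none of the 5 members that passed changed direction. The member count, 5 of 10, stands near that background and is no result about the family. The groups did not overlap for 5 members, 4 of them higher in H/R libraries, as was so for 49.7% of all genes in either direction and for 25.7% higher in H/R libraries. The median log2 fold change was 0.29 over the 10 members and 0.01 over all genes tested. At the study's own cut-offs (a fold change of 2 or more with a p under 0.05 before adjustment), Bad was the only member to pass, where 5.82% of all genes passed higher and 5.37% lower in H/R NSCs. No member met them without control replicate 3, without H/R replicate 1, or with H/R counts thinned to control depth.

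**Figure D1:**
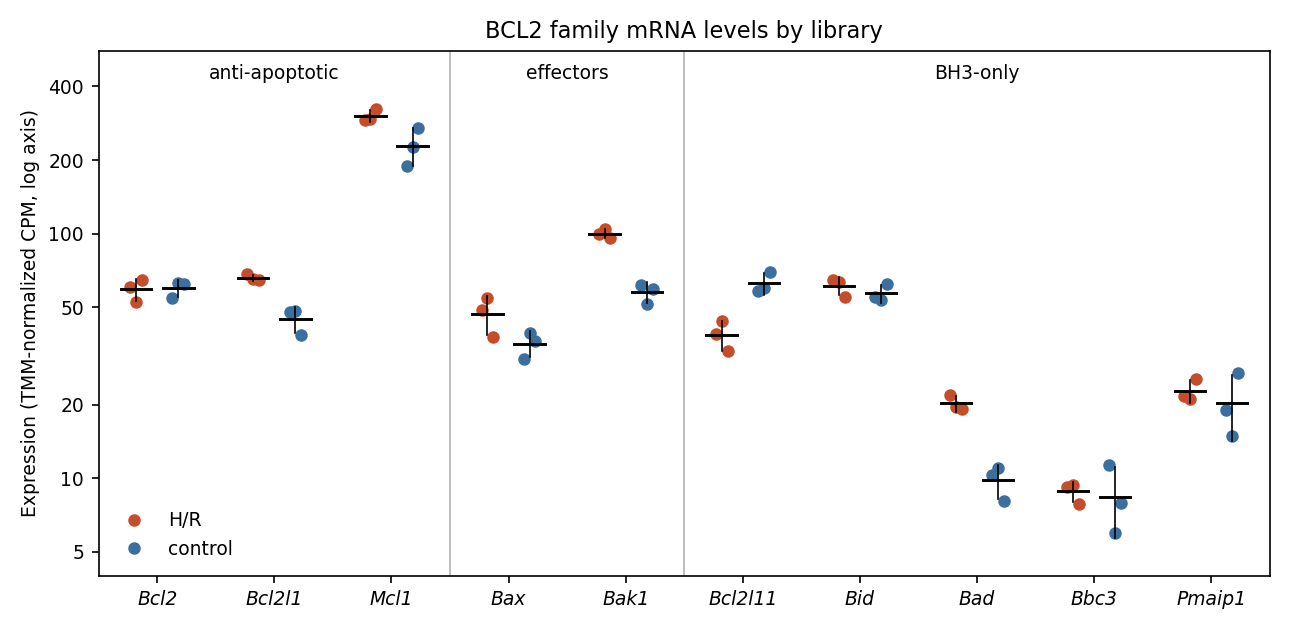
Level of each BCL2 family member in every library, in TMM-normalised CPM on a log axis, with H/R libraries left of control libraries a bar at each group mean and a line for 1 SD on either side. Mcl1 lies highest at 189 to 325 CPM, and the groups do not overlap for Bcl2l1, Mcl1, Bak1, Bcl2l11 and Bad.

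The sequences before 1 start site each of 4 of the 5 genes that moved are shown because the regulators described further on, FOXO factors, p53 and the ATF4-CHOP pair, are known to act on target genes through short elements. Each line gives 250 bases 5′ of a RefSeq transcript start site (GRCm38.p6, the assembly also named mm10), written 5′ to 3′ on the gene's own strand. Capitals mark a FOXO element (GTAAACA) or a GC box (GGGCGG) on either strand, the only searched motifs with a match in these 4 windows. The 3 windows of Bcl2l1 and the second window of Bad held no match, and the second window of Bcl2l11 held GC boxes and no FOXO element, so these are not printed.
Bcl2l11, chr2:128125788-128126037, plus strand: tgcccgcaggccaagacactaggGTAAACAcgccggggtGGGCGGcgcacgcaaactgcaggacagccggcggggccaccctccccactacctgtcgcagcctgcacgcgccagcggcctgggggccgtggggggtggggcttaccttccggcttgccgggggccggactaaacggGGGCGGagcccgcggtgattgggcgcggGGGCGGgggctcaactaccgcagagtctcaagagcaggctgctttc
Bad, chr19:6941611-6941860, plus strand: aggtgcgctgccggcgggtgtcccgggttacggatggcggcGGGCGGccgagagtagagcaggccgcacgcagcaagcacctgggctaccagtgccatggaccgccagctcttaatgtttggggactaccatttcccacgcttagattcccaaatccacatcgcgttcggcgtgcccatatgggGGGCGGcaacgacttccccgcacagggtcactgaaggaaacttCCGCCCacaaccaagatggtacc
Bak1, chr17:27028628-27028877, minus strand: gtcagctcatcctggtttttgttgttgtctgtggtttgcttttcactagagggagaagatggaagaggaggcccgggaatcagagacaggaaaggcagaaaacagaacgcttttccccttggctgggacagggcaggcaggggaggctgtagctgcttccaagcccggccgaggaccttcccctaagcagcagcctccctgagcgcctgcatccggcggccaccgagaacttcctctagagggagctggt
Mcl1, chr3:95658471-95658720, plus strand: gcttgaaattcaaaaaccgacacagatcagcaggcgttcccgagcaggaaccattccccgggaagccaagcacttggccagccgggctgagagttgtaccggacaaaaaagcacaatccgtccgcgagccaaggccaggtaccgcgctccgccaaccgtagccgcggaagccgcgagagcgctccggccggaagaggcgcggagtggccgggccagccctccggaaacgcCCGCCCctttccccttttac

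The Bcl2l11 window held 1 FOXO element, beginning 227 bases before the start site, and 3 GC boxes. The Bad window held 3 GC boxes, the Mcl1 window 1, and the Bak1 window no match to any motif searched. Over 15 RefSeq start sites of the 9 members with a window examined, a FOXO element was found in 2, of Bcl2l11 and Bbc3, and in 3.166% of all 32851 promoters. At least 1 GC box was found in 10 of the 15 member windows, from 7 of the 9 members, and in 32.742% of all promoters. Some windows belong to the same gene, so the 15 are not separate units. The Bbc3 windows chr7:16310011-16310260 and chr7:16310181-16310430 overlap. The hypoxia response core ACGTG was found in 2 of the 15 windows, of Bbc3 and Bax, and in 16.572% of all promoters. The ATF4-CHOP element TGATGNAA (3.452% of all promoters) and the E2F site TTTGGCGC (0.417%) had no match in any member window, and the p53 half-site (7.126%) had 1, in Bax. No window of Pmaip1 was searched. Both strands were searched for every motif, and CACGTG counts as ACGTG on each strand. A match says only that these letters are present in the window. GC content of the 15 windows ranged from 47.6% to 81.6% with a median of 64.4%, against a median of 52.4% over all promoters.

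Of the anti-apoptotic members, 2 of 3 rose after H/R. Mcl1 encodes a short-lived protein on which mouse neural progenitors depend for survival, and it had the highest level of the family. Mcl1 had 292, 295 and 325 CPM in the H/R libraries, against 189, 227 and 270 CPM in the control libraries. Every H/R library lay above every control library, and the control libraries were the more spread. The means were 304 ± 17.98 CPM in H/R and 229 ± 40.5 CPM in control NSCs (SD, n = 3 each), a log2 fold change of 0.41 (SE 0.12, adjusted p = 0.0140 in edgeR's quasi-likelihood test). The call was lost without control replicate 2 (log2 fold change 0.40, edgeR adjusted p = 0.0583) and without H/R replicate 3 (0.36, edgeR adjusted p = 0.0677).

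Bcl2l1 encodes BCL-XL, which keeps newly formed mouse neurons alive. It had 68.2, 65.6 and 64.5 CPM in the H/R libraries, against 47.9, 48.2 and 38.5 CPM in the control libraries. The groups were well separated, with the lowest value in control replicate 3. The log2 fold change was 0.56 (SE 0.12, adjusted p = 0.00266 in edgeR's quasi-likelihood test).

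Bcl2, the founding member, differed by less than the spread between replicates. It had 60.5, 52.7 and 64.6 CPM in the H/R libraries, against 54.4, 62.6 and 62.6 CPM in the control libraries. The groups overlapped throughout, and the 95% interval of the log2 fold change ran from -0.27 to 0.24 around -0.01 (edgeR adjusted p = 0.941). Bcl2 shares 558 exon bases with the antisense gene D630008O14Rik, which was not analysed here. Summed over the 3 anti-apoptotic genes, the level was 429 ± 21.4 CPM in H/R and 334 ± 40.0 CPM in control NSCs (SD, n = 3 each).

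Of the effectors, Bak1 rose and Bax did not pass the test. Bak1 encodes BAK, which sits in the outer mitochondrial membrane. Bak1 had 100.1, 104 and 95.9 CPM in the H/R libraries, against 62.0, 51.4 and 59.7 CPM in the control libraries. No library of one group came near the other, and the log2 fold change was 0.79 (SE 0.11, adjusted p = 8.45e-05 in edgeR's quasi-likelihood test), larger than that of 90.4% of all genes tested. Bak1 shares exon bases on the opposite strand with Ggnbp1, which had 0.879 CPM in H/R and 1.12 CPM in control NSCs.

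Bax encodes the effector that moves from the cytosol to mitochondria when activated. It had 48.7, 54.5 and 37.7 CPM in the H/R libraries, against 30.8, 39.4 and 36.5 CPM in the control libraries. H/R replicate 3 lay below control replicate 2, so the groups overlapped. The means were 46.9 ± 8.54 CPM in H/R and 35.6 ± 4.36 CPM in control NSCs (SD, n = 3 each), with a log2 fold change of 0.40 (SE 0.16). Its edgeR quasi-likelihood p was 0.0244 before adjustment and its adjusted p was 0.0612. Bax passed without H/R replicate 3, at a log2 fold change of 0.54 (edgeR adjusted p = 0.0213). Bax shares 192 exon bases with Gm45808 on the same strand, which was not analysed here. The 2 effectors together were at 147 ± 12.6 CPM in H/R and 93.3 ± 2.75 CPM in control NSCs (SD, n = 3 each).

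**Figure D2:**
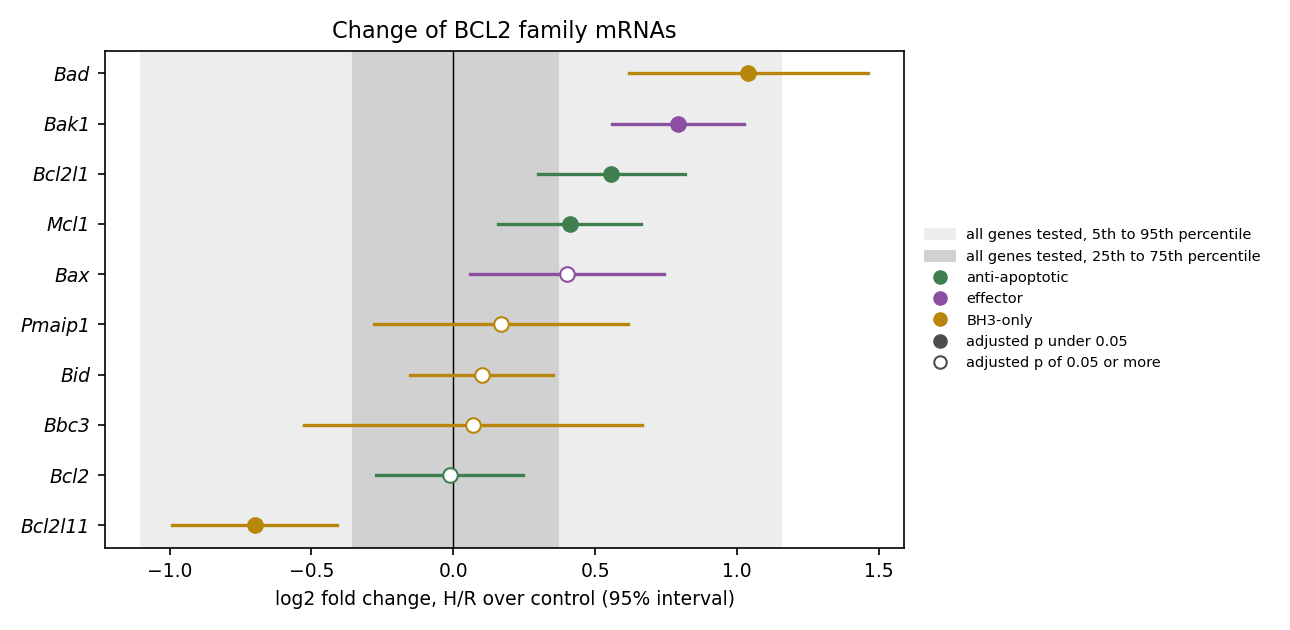
Log2 fold change of H/R against control for the 10 members with 95% intervals, ordered by size and coloured by role, filled where the adjusted p is under 0.05, with grey bands for the 5th to 95th and 25th to 75th percentiles of all genes tested. Bad has the largest increase at 1.04 and Bcl2l11 the only decrease past the test at -0.70, while 5 intervals belong to members that did not pass.

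The 5 BH3-only members went in both directions. Bad encodes a protein that is held by 14-3-3 proteins when growth factor kinases phosphorylate it, and that binds BCL2 and BCL-XL when it is not. Bad had 21.997, 19.5 and 19.2 CPM in the H/R libraries, against 10.3, 11.04 and 8.08 CPM in the control libraries. Each H/R library exceeded the highest control library, on 327 to 400 counts in H/R and 54 to 85 counts in control libraries. The log2 fold change of 1.04 (SE 0.19, adjusted p = 9.69e-04 in edgeR's quasi-likelihood test) was the largest of the family. Bad shares 524 exon bases with Gpr137 on the opposite strand, and Gpr137 was itself higher at 25.4 CPM in H/R and 14.6 CPM in control NSCs (log2 fold change 0.80, edgeR adjusted p = 0.00528). The strand setting of the counting is not given in the sources used here, and the part of shared reads in the Bad value was not tested.

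Bcl2l11 encodes BIM, an activator that binds every anti-apoptotic member and is a known target of FOXO factors and of CHOP. It was the only member that fell. Bcl2l11 had 39.0, 43.8 and 33.0 CPM in the H/R libraries, against 58.4, 59.9 and 70.0 CPM in the control libraries. Every H/R library lay below every control library. The means were 38.6 ± 5.40 CPM in H/R and 62.8 ± 6.34 CPM in control NSCs (SD, n = 3 each), a log2 fold change of -0.70 (SE 0.13, adjusted p = 0.00120 in edgeR's quasi-likelihood test), and 12.0% of all genes tested had a lower one.

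Bid, Bbc3 and Pmaip1 overlapped between the groups. Bid encodes the protein that caspase-8 cleaves to link death receptors with mitochondria, and had 64.7, 63.5 and 55.3 CPM in the H/R libraries, against 55.03, 53.6 and 62.6 CPM in the control libraries (log2 fold change 0.10, 95% interval -0.15 to 0.35). Bbc3 encodes PUMA, a target of p53, and had 9.24, 9.39 and 7.89 CPM in the H/R libraries, against 11.3, 5.98 and 7.93 CPM in the control libraries (log2 fold change 0.07, interval -0.53 to 0.67). Pmaip1 encodes NOXA, another p53 target and a partner of MCL1, and had 21.7, 21.0 and 25.5 CPM in the H/R libraries, against 18.9, 14.9 and 26.9 CPM in the control libraries (log2 fold change 0.17, interval -0.28 to 0.62). Bbc3 and Pmaip1 had the widest intervals of these 3 genes, and their control libraries were more spread than their H/R libraries. Bid shares 628 exon bases on the opposite strand with Bcl2l13, which had 58.5 CPM in H/R and 68.6 CPM in control NSCs, and the part of shared reads was not tested. The edgeR adjusted p was 0.533 for Bid, 0.867 for Bbc3 and 0.555 for Pmaip1.

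Between them, the 5 BH3-only genes summed to 152 ± 9.26 CPM in H/R and 158 ± 15.5 CPM in control NSCs (SD, n = 3 each), with overlapping libraries, while their makeup differed. Bcl2l11 made up 24.9%, 27.9% and 23.4% of BH3-only counts in the H/R libraries, against 37.9%, 41.2% and 39.9% in the control libraries. Bad made up 14.04%, 12.4% and 13.7% in the H/R libraries, against 6.70%, 7.59% and 4.60% in the control libraries. For both genes the groups were separate. Neither the sum nor the shares were divided by gene length, so Bcl2l11 (8.03 kb of exons) weighs more per transcript than Bad (2.56 kb). Bid was the most counted BH3-only gene in the H/R libraries, with a mean share of 40.3% in H/R and 36.1% in control NSCs, where Bcl2l11 had a mean share of 39.7%. Over all 10 members, the summed level was 726, 730 and 728 CPM in the H/R libraries, against 538, 574 and 643 CPM in the control libraries.

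Ratios between roles were taken within each library, so that scaling between libraries does not enter. They use counts not divided by gene length, so long genes weigh more, and Mcl1 holds most of the anti-apoptotic counts. Whether the ratios differ in the same way per length was not tested. The log2 ratio of BH3-only to anti-apoptotic counts was -1.42, -1.40 and -1.69 in the H/R libraries, against -0.92, -1.22 and -1.08 in the control libraries. Every H/R library was lower, with a difference of -0.43 (exact permutation p = 0.1, two-sided, the smallest that 3 against 3 libraries can give). With each library left out, the difference ran from -0.50 without control replicate 2 to -0.34 without H/R replicate 3 (exact permutation p = 0.2 for the latter). The summed BH3-only level overlapped between groups (152 CPM in H/R and 158 CPM in control NSCs), while the anti-apoptotic sum was 429 and 334 CPM. The log2 ratio of effector to anti-apoptotic counts was -1.50, -1.38 and -1.76 in the H/R libraries, against -1.65, -1.90 and -1.95 in the control libraries. These groups overlapped, with a difference of 0.28 (exact permutation p = 0.2).

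The ratio of Bax to Bcl2 is often quoted as an index of susceptibility to apoptosis. Its log2 value was -0.31, 0.05 and -0.78 in the H/R libraries, against -0.82, -0.67 and -0.78 in the control libraries. H/R replicate 3 lay among the control libraries, and the difference of 0.41 was not separable from the spread (exact permutation p = 0.3). It was 0.62 without H/R replicate 3 and 0.21 without H/R replicate 2. None of the 3 ratios could reach an exact p under 0.05 in this design.

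**Figure D3:**
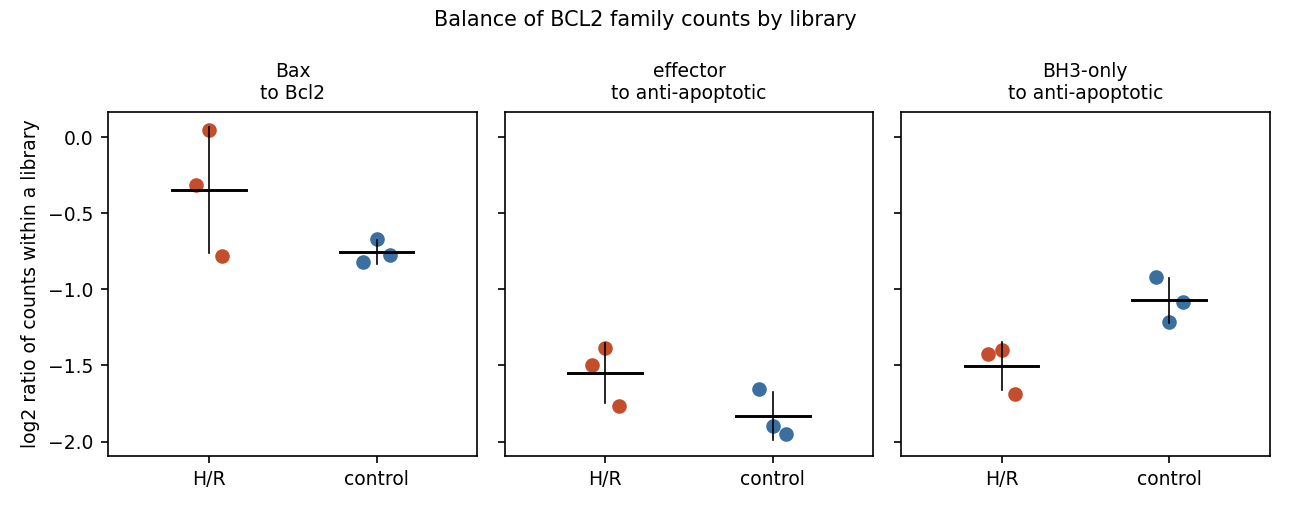
Log2 ratios of counts within each library for Bax to Bcl2, effector to anti-apoptotic and BH3-only to anti-apoptotic genes, with H/R libraries left of control libraries, a bar at the mean and a line for 1 SD on either side. Only the BH3-only to anti-apoptotic ratio separates the groups, at -1.69 to -1.40 in H/R libraries and -1.22 to -0.92 in control libraries.

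To compare levels between genes, CPM were divided by the kilobases of merged exons of each gene. Mcl1 was highest in both groups, at 89.0 CPM per kb in H/R and 67.0 CPM per kb in control NSCs. Bak1 followed in H/R NSCs at 41.6 CPM per kb, then Bax at 29.8, Bid at 17.2 and Bcl2l1 at 14.4 CPM per kb. In control NSCs Bak1 at 23.98 and Bax at 22.6 CPM per kb overlapped between libraries, followed by Bid at 16.1 and Bcl2l1 at 9.78 CPM per kb. Bad was lowest of the 10 in control NSCs, at 3.84 CPM per kb with libraries overlapping those of Bbc3 at 3.96, and stood at 7.91 CPM per kb in H/R NSCs, where it overlapped Pmaip1 at 8.32 and lay above Bcl2 at 6.47. Bcl2l11 was at 4.81 CPM per kb in H/R NSCs, where it overlapped Bbc3 at 4.16, and at 7.82 CPM per kb in control NSCs, where it overlapped Bcl2l1 and Pmaip1. Bcl2, for which the family is named, was therefore among the lower members per length, at 6.47 CPM per kb in H/R and 6.54 CPM per kb in control NSCs.

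The member loci also gave noncoding transcripts. Of 23098 lncRNA transcripts in the deposited lncRNA table, 13 were assigned to a member, and 3 of these had enough counts to test, where 4.93% of all tested lncRNAs passed. ENSMUST00000146023 runs in sense over exons of Bcl2l11 (mm10, chromosome 2, 128126038 to 128130015). It had 10.8, 24.3 and 7.78 CPM of lncRNA counts in the H/R libraries, against 58.9, 39.0 and 63.8 CPM in the control libraries. Its H/R libraries were all below its control libraries, with a log2 fold change of -1.90 (SE 0.54, edgeR adjusted p = 0.0479), on 9 to 27 counts in H/R and 24 to 37 counts in control libraries. Since this transcript shares exon sequence with the coding gene, its value and that of Bcl2l11 are not separate measurements. It did not pass when no filter on low counts was used (edgeR adjusted p = 0.0568). A sense transcript at Bid (ENSMUST00000160684) and an antisense one at Bad (AK029400) did not pass, with edgeR adjusted p of 0.843 and 0.714. None of the 2805 circRNAs was assigned to a member locus.

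Among other genes related to BCL2, 8 of 15 were tested, with 1 higher and 2 lower in H/R NSCs and a median log2 fold change of -0.18. The shares over all genes tested were 18.8% higher and 19.0% lower, with a median of 0.01. Bcl2l2, which encodes the anti-apoptotic protein BCL-W, had 79.0, 60.4 and 73.1 CPM in the H/R libraries, against 37.0, 33.1 and 41.9 CPM in the control libraries. The groups did not overlap, and the log2 fold change was 0.93 (SE 0.14, edgeR adjusted p = 1.65e-04). Bnip3 and Bnip3l encode BH3-like receptors of mitophagy that low oxygen is known to induce. At the end of reoxygenation Bnip3 was at 54.5 ± 7.72 CPM in H/R and 119 ± 13.8 CPM in control NSCs (SD, n = 3 each; log2 fold change -1.13, edgeR adjusted p = 1.98e-05). Bnip3l was at 156 ± 4.12 CPM in H/R and 225 ± 13.6 CPM in control NSCs (log2 fold change -0.53).

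Downstream of the mitochondrion, 5 of 16 tested genes of the apoptosome and caspase list rose after H/R and none fell, with 11 not passing and a median log2 fold change of 0.20. Over all genes tested, 18.8% were higher, 19.0% lower and the median 0.01, and nothing particular to this list is read from its count. Apaf1, the scaffold that cytochrome c assembles into the apoptosome, was at 203 ± 6.72 CPM in H/R and 139 ± 19.9 CPM in control NSCs (log2 fold change 0.55, edgeR adjusted p = 0.00124). Aifm1, a mitochondrial flavoprotein that can move to the nucleus in cell death, had a log2 fold change of 0.50, and Casp2 one of 0.60.

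The death receptor list, which feeds into Bid through caspase-8, had 4 of 8 genes higher, none lower and a median log2 fold change of 0.31, beside 18.8% higher, 19.0% lower and a median of 0.01 over all genes tested. Fas had 52.5, 50.3 and 48.1 CPM in the H/R libraries, against 32.6, 18.8 and 11.2 CPM in the control libraries. Its H/R libraries were close together and its control libraries were spread, with a log2 fold change of 1.26 (SE 0.26, edgeR adjusted p = 0.00208). The adaptor Fadd had a log2 fold change of 1.04, Tnfrsf10b, the mouse TRAIL receptor, one of 0.50, and Tnfrsf1a, a receptor of TNF, one of 0.40. Casp8 did not pass (log2 fold change 0.22, edgeR adjusted p = 0.276), nor did Cflar, Ripk1 or Tradd. Without scaling between libraries, 7 genes of this list and 8 of the apoptosome list passed higher. Without H/R replicate 1, and likewise without H/R replicate 2, 3 genes of the death receptor list passed higher. Nothing particular to this list is read from its count.

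Regulators of BH3-only genes and their pathway genes gave 1 of 12 tested higher, 5 lower and 6 not passing, with a median log2 fold change of -0.14. Without scaling between libraries, 4 were higher and 5 lower. Over all genes tested, 18.8% were higher, 19.0% lower and the median 0.01, and nothing particular to this list is read from its count. Ddit3 encodes CHOP, a stress-induced activator of Bcl2l11. It had 55.9, 56.9 and 65.6 CPM in the H/R libraries, against 357, 580 and 689 CPM in the control libraries. The groups lay far apart, with a log2 fold change of -3.19 (SE 0.19, edgeR adjusted p = 1.22e-07). Atf4, the factor upstream of CHOP in the integrated stress response, was at 343 ± 5.61 CPM in H/R and 701 ± 41.2 CPM in control NSCs (log2 fold change -1.03). Trib3, a pseudokinase that CHOP induces, had a log2 fold change of -1.28, and Myc, which raises BIM in mouse B cells, one of -1.43. Mdm2, the p53 ubiquitin ligase and itself a p53 target, rose to 617 ± 33.3 CPM in H/R, against 367 ± 20.6 CPM in control NSCs (log2 fold change 0.75, edgeR adjusted p = 1.60e-05). Foxo3 did not pass (log2 fold change 0.29, edgeR adjusted p = 0.0581), nor did E2f1 (0.25, edgeR adjusted p = 0.173) or Foxo1 (0.20, edgeR adjusted p = 0.332).

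**Figure D4:**
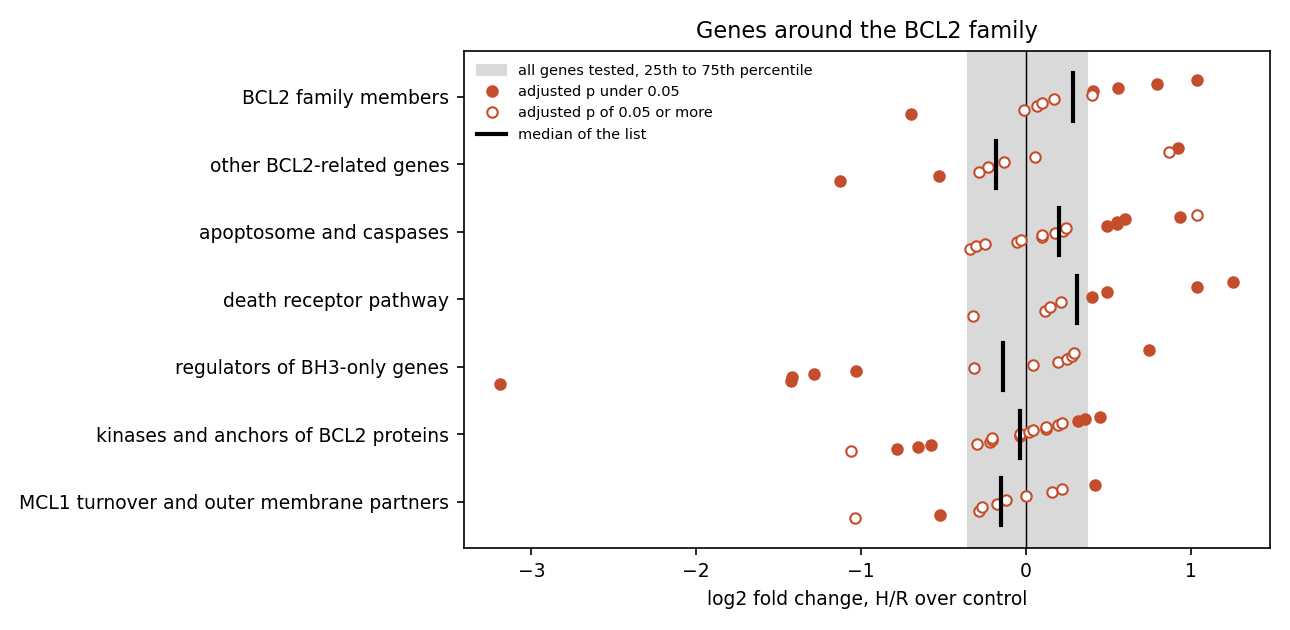
Log2 fold change of H/R against control for each tested gene of the BCL2 family and the related lists, 1 point per gene, filled where the gene passed the test, with a bar at each list's median and a grey band for the 25th to 75th percentile of all genes tested. The family median is 0.29, the death receptor median 0.31 and the median of the BH3-only regulators -0.14, where Ddit3 lies farthest at -3.19.

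Kinases and anchors that act on BCL2 proteins were mixed, with 3 of 19 higher, 3 lower and a median log2 fold change of -0.03, and without scaling between libraries 8 were higher and 1 lower. Dynll1, the dynein light chain that tethers BIM, rose (0.45), as did Mapk8, which encodes the kinase JNK1 (0.36), and the 14-3-3 gene Ywhah (0.32). Another 14-3-3 gene, Ywhag, fell (-0.78), as did Pim3 (-0.58) and Pim2 (-0.65), whose kinases phosphorylate BAD. Of 10 genes for MCL1 turnover and outer membrane partners, 1 rose, 1 fell and 8 did not pass. Both lists stand beside 18.8% higher and 19.0% lower over all genes tested. Fbxw7, which marks MCL1 for degradation, had a log2 fold change of 0.42, and the channel gene Vdac3 one of -0.52.

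The direction and the call held in 14 of 14 alternative settings tested at an adjusted p under 0.05 for Bcl2l1, Bak1, Bcl2l11 and Bad, and in 12 for Mcl1. Bax passed in 4 of these settings and Bid in 1, while Bcl2, Bbc3 and Pmaip1 passed in none.

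**Figure D5:**
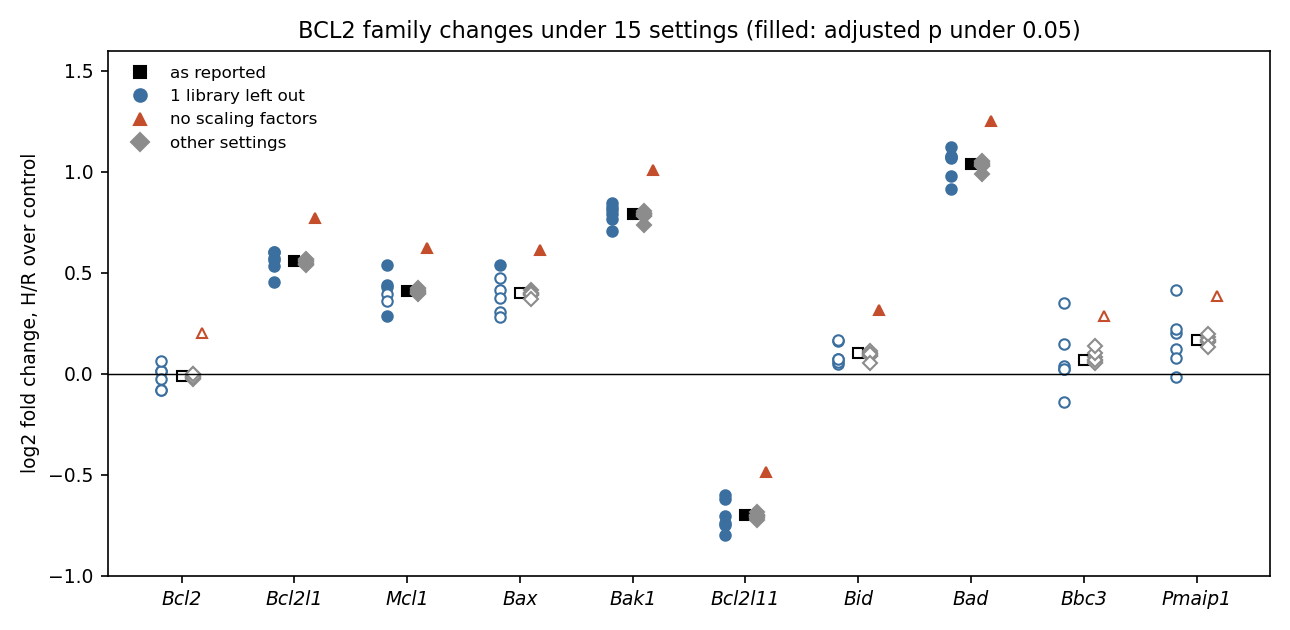
Log2 fold change of H/R against control for each member as reported, with each library left out in turn, without scaling and in the other alternatives, filled where the adjusted p is under 0.05. Bcl2l11 stays between -0.80 and -0.48 and Bad between 0.92 and 1.25, while Bcl2, Bbc3 and Pmaip1 fall on both sides of 0.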

How the data were processed

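RNA from 3 H/R and 3 control NSC libraries was sequenced with 150 bp paired-end reads. Per the labels and the study's methods, adapters were removed by the authors with cutadapt 1.9.3, HISAT2 2.0.4 was the aligner (build mm10), and they deposited raw HTSeq 0.9.1 counts per gene, with no normalization. The counter's strand setting and annotation release are not given in the sources used here. The tables' 18 other columns under the sample names hold the authors' normalized values and, like any comparisons by the authors, were not used. Genes passing filterByExpr were tested with edgeR 4.0.16 in R 4.3.3 (TMM scaling, glmQLFit and glmQLFTest, two-sided, Benjamini-Hochberg adjusted p under 0.05 over all 11104 genes), and lncRNA counts likewise. The test was checked on simulated data with fewer changed genes than here and the same spread for every gene. That check does not bear on the scaling between libraries. Ratios used counts plus 0.5 and exact permutation tests over libraries. Exon lengths and overlaps came from the GENCODE annotation of GRCm38, promoter sequences from RefSeq. Alternatives were DESeq2 1.42.0, edgeR's exact test, other scaling and filters, a replicate block, H/R counts thinned to control depth and each library left out. The members and lists were chosen with earlier results of these data known. All 10 members are named whatever their result, and of each related list up to 4 tested genes per direction with the smallest adjusted p. Some genes that this rule or the marker lists would name are not reported here.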

Additional observations from a re-analysis of the deposited data

How the results depend on the processing

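Of the 10 members' values under the alternatives, 136 kept direction and call, 6 changed sign, 5 newly passed and 3 no longer passed. Without scaling between libraries, the all-gene median shifted to 0.22 (log2) in place of 0.01, 3704 genes passed higher and 1272 lower (74.4% of calls higher), and Bcl2 (0.20), Bax (0.61, edgeR adjusted p = 0.00716) and Bid (0.32, edgeR adjusted p = 0.0421) moved up, the last pair passing. Under it 2 members met the study's thresholds, and passing genes numbered 8 higher for the apoptosome list, 7 for death receptors, 4 for regulators of BH3-only genes, 8 higher and 1 lower for kinases and anchors, and 2 higher for MCL1 turnover. With H/R counts thinned, 0 members met the study's thresholds. At an adjusted p under 0.01, 1353 genes passed higher and Mcl1 (edgeR adjusted p = 0.0140) was lost. Bax passed in edgeR's exact test (adjusted p = 0.0471) and with no filter (edgeR adjusted p = 0.0347). The Bcl2l11 lncRNA did not pass with no filter (edgeR adjusted p = 0.0568), so 0 lncRNAs at member loci passed in that setting.

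Leaving out each library gave 1571 to 2261 genes higher and 1622 to 2313 lower, and 0 to 1 members at the study's thresholds, 0 without control replicate 3 or H/R replicate 1. It gave 0 to 1 apoptosome genes lower, 1 to 3 kinases and anchors higher, 1 to 2 MCL1 turnover genes higher and 1 to 3 lower, and 1 to 2 regulators of BH3-only genes higher. The log2 fold change of Bcl2 ranged from -0.080 to 0.066, above 0 without control replicate 2 or 3 or H/R replicate 2. That of Bbc3 ranged from -0.14 to 0.35 and that of Pmaip1 from -0.018 to 0.42, each below 0 without control replicate 2. Libraries with the same number deviated from their group means with correlations of 0.0392, 0.00417 and 0.0219, so they were not taken as pairs. H/R replicate 2 correlated best with control replicate 3. With a replicate block, 2039 genes passed higher and 1998 lower, with 4 members higher and 1 lower. The exact paired p was 0.25 for the BH3-only and effector ratios, the smallest possible with so few pairs, and 0.5 for Bax to Bcl2. The lowest count of a member in 1 library was 46, for Bbc3 in control replicate 2.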
